A study of Mus musculus with 8 samples.

Results

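The genes described here are 50 components of the actin cytoskeleton and of leukocyte motility, taken by symbol from a fixed list: actins, actin-monomer binding proteins, the Arp2/3 complex and its activators, elongation, severing and capping factors, crosslinkers, myosins, membrane linkers with vimentin, and the genes Rhoa, Rac1 and Cdc42. All 50 were found in the deposited table of 54532 genes, 1 row each, and all 50 passed the filter on low counts. They were followed in neutrophils sorted from tumours of 2208L, a mouse mammary tumour line grown in fat pads of untreated Balb/c hosts until it measured 1 cm across. The 4 ICAM1high and 4 ICAM1low libraries hold cells sorted by surface ICAM1, also called CD54, and are named as biological replicates 1 to 4 of each fraction. Genotype, age and sex of the hosts, the sorting gates and the mouse behind each replicate are not stated, so the p-values measure the spread between these samples.

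Leukocytes crawl by polymerising actin at the front and contracting at the rear. Profilin and thymosins hold the monomer pool, the Arp2/3 complex starts branches when WASP or WAVE proteins switch it on downstream of Cdc42 and Rac, formins and Ena/VASP proteins lengthen filaments, and cofilin, gelsolin and capping protein end or dismantle them. Plastin and filamin bundle and crosslink the filaments, non-muscle myosin II pulls on them under RhoA control, and ezrin, radixin and moesin tie them to the plasma membrane. Neutrophils, which must squeeze through narrow gaps in tissue, depend on the blood-cell versions of several of these proteins, among them Was, Nckap1l (HEM1), Coro1a, Lcp1 (L-plastin), Fmnl1 and Myo1f.

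Libraries held 10328575 to 20625309 counts in ICAM1high and 16768777 to 22751975 in ICAM1low. ICAM1high replicate 1 and ICAM1low replicate 4 stood apart from their groups by the lengths of the genes they held most of, as described with the length of the members. The sorted marker, Icam1, was at 1300 to 1733 CPM (a count taken relative to library size, with TMM scaling) in ICAM1high and at 607 to 1085 CPM in ICAM1low. Markers of other cells moved with the fractions. Of 15 macrophage and monocyte markers 13 were higher in ICAM1high and 1, Cd14, was lower, and none was at 0; C1qa, for example, was at 1184 against 60.3 CPM. Their summed level was 17421 to 27090 CPM in ICAM1high and 14049 to 24539 CPM in ICAM1low, a sum in which Cd14 alone averaged 5187 and 17075 CPM. All 15 neutrophil markers were lower in ICAM1high, at a summed 10542 to 14602 CPM against 44823 to 87914 CPM. Of 8 epithelial markers, 6 of them tested, 4 were lower in ICAM1high and 0 higher, at a summed 111 to 164 against 259 to 461 CPM, and Krt5 had 0 counts in all ICAM1high libraries. Of 13 fibroblast and smooth muscle markers, 8 of them tested, 2 were higher and 1, the smooth muscle actin Acta2, was lower (18.6 against 85.0 CPM), at a summed 71.8 to 122 against 108 to 168 CPM. The muscle actins Acta1, Actc1 and Actg2 were each at 0.139 CPM or less on average, and Acta1 had 0 counts in ICAM1high and Actc1 in ICAM1low. Summed markers of dendritic, T and NK, B, endothelial, erythroid and platelet, and mast cells reached at most 34.1 CPM per list in any library. The part of these cells in the differences reported here was not tested, and in bulk RNA a change in the cells sampled and a change in RNA per cell cannot be told apart.

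Many of these genes were lower in the ICAM1high fraction relative to other genes, and a small set was higher. With edgeR's quasi-likelihood test and an adjusted p under 0.05, 24 of the 50 genes were lower, 5 were higher and 21 did not pass. The lower genes were led by Actg1 (cytoplasmic gamma-actin), Myl12b (a myosin light chain), Fmnl1 and Diaph1 (formins) and Arpc3 (an Arp2/3 subunit); the higher ones were Evl (an Ena/VASP protein), Myo1g (a class I myosin), Vim (vimentin), Rdx (radixin) and Cyfip1 (a WAVE complex subunit). Over all 14051 genes tested, 19.6% were lower and 22.6% higher, 42.1% in either direction. These 50 genes are abundant, and abundant genes were lower more often. Among the 4265 genes whose mean log2 CPM reached 5, 36.8% were lower and 14.0% higher. Of the 48 members at or above this cut, 23 were lower and 4 higher. Most members lay well above the cut, so it does not match their own levels. Whether members were lower more often than equally abundant genes was not tested. The libraries of the fractions did not overlap in CPM for 27 of the 50, 22 with ICAM1high below and 5 with ICAM1high above, where 41.5% of all tested genes did not overlap in either direction. The median log2 fold change was -0.58 over the members and 0.08 over all genes tested.

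These directions are relative to the TMM scale. When libraries were scaled by their totals alone, all log2 fold changes moved up by about the same amount, the median of all genes from 0.08 to 0.76 (a shift of 0.68) and that of the members from -0.58 to 0.11. Under library totals 7 members passed as lower and 12 as higher, and over all genes 839 were lower and 6818 higher, so that 89.0% of calls were higher, against 53.6% with TMM. The 7 that passed as lower on both scales were Actg1, Myl12b, Fmnl1, Arpc3, Coro1a, Vasp and Lcp1, and the 5 higher genes passed on both. With RLE, another way of scaling, Cyfip1 did not pass (0.46, adjusted p = 0.0567), while 3 members that had not passed with TMM did. Of the 24 genes called lower, Arpc1b, Arpc2, Wipf1, Capza1, Capza2, Rac1 and Rhoa turned to between 0.09 and 0.16 under library totals, without passing. Before any scaling, the 50 genes took 3.12 to 3.56% of all counts in ICAM1high and 3.40 to 3.85% in ICAM1low, ranges that overlap. With both of the libraries that stood apart left out, 33 members were lower and 5 higher. Calls also rose over all genes, from 2748 to 3441 lower and from 3172 to 3586 higher. Without ICAM1high replicate 1 alone, 31 members were lower, with Pfn1, Tmsb4x, Arpc4, Brk1, Cfl1, Myl12a and Cdc42 added. Of all 14321 genes tested there, 2927 were lower. Leaving out ICAM1high replicate 2, 3 or 4 left 3 higher members in each case, without Rdx and Cyfip1. It left 20 lower, without Arpc2, Myl6, Rac1 and Rhoa. Over all genes these settings gave 2345, 2431 and 2702 higher and 2157, 2221 and 2464 lower. Library names fall into 2 number series, the first in replicates 1 and 2 of both fractions and the second in replicates 3 and 4. Each number is shared by the ICAM1high and the ICAM1low library of the same replicate. What the numbers stand for, and whether such libraries are paired, is not stated. The main test took them as unpaired. Within replicates 1 and 2 alone 3 members passed as higher and 7 as lower, and within replicates 3 and 4 alone 2 and 25. Over all genes, replicates 1 and 2 alone gave 1708 higher and 1416 lower of 14323. Replicates 3 and 4 alone gave 1658 and 1604 of 14541. Tmsb10 (1.20, adjusted p = 0.0404) was among the 3 higher members in replicates 1 and 2.

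**Figure D1:**
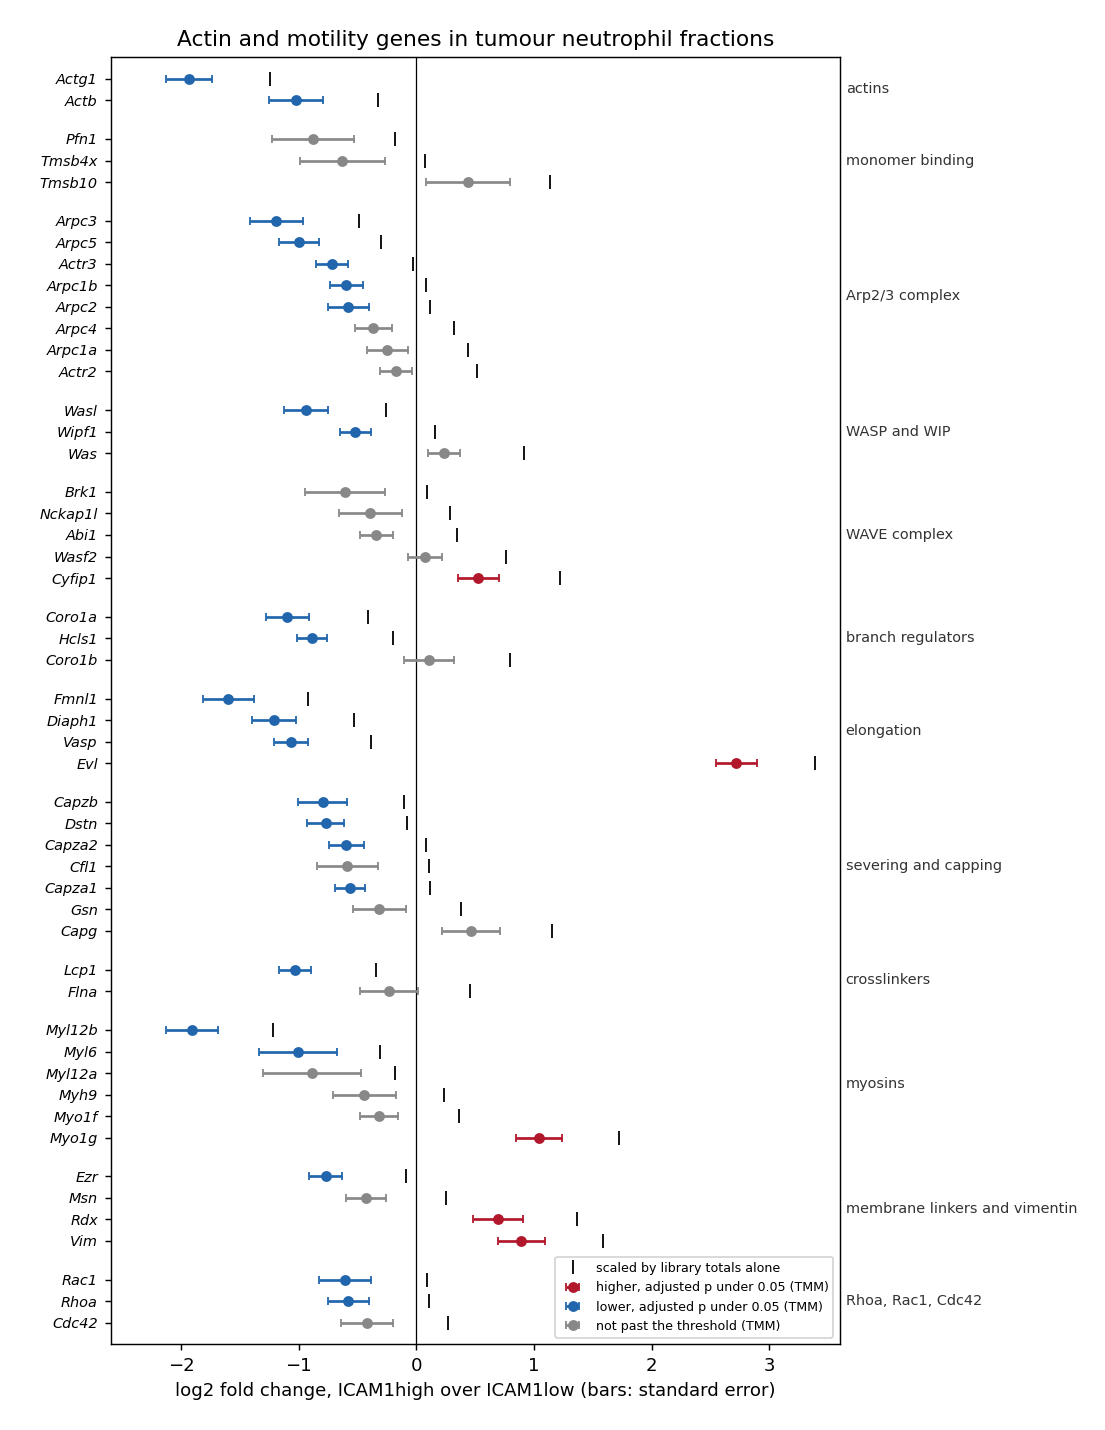
Log2 fold change of ICAM1high over ICAM1low for the 50 genes by role (points, TMM scale; bars, standard error; red higher, blue lower, grey not past an adjusted p of 0.05); the black ticks give the value when libraries are scaled by totals alone. Points run from -1.93 for Actg1 to 2.72 for Evl, and the ticks lie to the right of every point.

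Both cytoplasmic actins were lower in ICAM1high, gamma-actin by more than beta-actin. Actg1 (ENSMUSG00000062825, mm10 chromosome 11, 120345690 to 120348542) was at 1815, 1253, 1315 and 1311 CPM in ICAM1high replicates 1 to 4 and at 4410, 4985, 5470 and 6838 CPM in ICAM1low replicates 1 to 4. Every ICAM1high library was below every ICAM1low library, at -1.93 on the log2 scale (SE 0.19, adjusted p = 4.93e-05), or 3.81-fold lower, and -1.24 under library totals. Actb, the cytoplasmic beta-actin (ENSMUSG00000029580, chromosome 5, 142903115 to 142906754), was at 3658, 2587, 2310 and 2425 CPM against 4175, 5138, 5202 and 7819 CPM. The groups again did not overlap, at -1.02 (SE 0.23, adjusted p = 0.00494), and -0.33 with an adjusted p of 0.146 under library totals. A ratio within a library does not depend on the scaling. Per kilobase of gene length, Actb exceeded Actg1 by 2.00, 2.05, 1.74 and 1.84 times in ICAM1high and stood at 0.939, 1.02, 0.944 and 1.13 times Actg1 in ICAM1low. The beta and gamma transcripts were thus at nearly equal levels in ICAM1low and at 1.91 ± 0.142 to 1 in ICAM1high (SD, n = 4), with no overlap between the fractions. The coding sequences of these actins are closely related, and how reads matching both were counted is not stated.

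Actin transcription is known to be tuned by serum response factor (SRF), which binds the CArG box and whose MRTF cofactors sense free actin monomers. RefSeq promoters (GRCm38.p6, 250 bases before to 50 after a start) were at hand for 44 of the 50 genes, not for Actb, Coro1b, Cyfip1, Diaph1, Nckap1l and Rac1. A CArG box was present in 3 of the 44, beside 1.81% of the 27025 genes in the same table: Actg1 and Myl6, which were both lower in ICAM1high, and Arpc4, at a log2 fold change of -0.37 (adjusted p = 0.0842). GGGCGG, the core letters of the GC box, stood in 34 of the 44 and in 38.2% of all genes, TATAAA in 5 of the 44 and 15.7%, and GAGGAAGT, a form of the PU.1 site, in 2 of the 44 (Fmnl1 and Arpc1b) and 3.69%. All were searched on both strands, and a CArG box can hold TATAAA within it. Of the 44, 10 had more than 1 start, and a gene counted if any of its promoters held the site. By promoter, 3 of 57 held a CArG box, beside 1.63% of all 32851. The Myl6 promoter with the site lies inside the deposited gene, which on the minus strand begins at base 128494145. The 3 promoters are printed 5′ to 3′ on the strand of the gene, with the CArG box in capitals, because they are the members that carry this site: at bases -90 to -81 from the start in Actg1 (chr11:120348446-120348745, minus strand), -50 to -41 in Myl6 (chr10:128492960-128493259, minus strand) and -250 to -241 in Arpc4 (chr6:113377863-113378162, plus strand).
Actg1: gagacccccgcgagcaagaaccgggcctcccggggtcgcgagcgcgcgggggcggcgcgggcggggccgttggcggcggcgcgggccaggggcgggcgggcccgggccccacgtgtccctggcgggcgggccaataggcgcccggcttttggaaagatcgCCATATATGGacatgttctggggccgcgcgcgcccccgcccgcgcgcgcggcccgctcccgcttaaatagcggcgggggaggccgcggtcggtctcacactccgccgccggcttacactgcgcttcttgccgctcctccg
Myl6: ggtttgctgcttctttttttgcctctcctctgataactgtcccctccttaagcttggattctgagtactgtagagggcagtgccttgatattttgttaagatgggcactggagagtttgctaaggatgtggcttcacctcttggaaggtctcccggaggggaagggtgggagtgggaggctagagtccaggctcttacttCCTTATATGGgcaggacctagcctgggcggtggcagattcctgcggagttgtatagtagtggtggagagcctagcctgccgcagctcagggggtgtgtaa
Arpc4: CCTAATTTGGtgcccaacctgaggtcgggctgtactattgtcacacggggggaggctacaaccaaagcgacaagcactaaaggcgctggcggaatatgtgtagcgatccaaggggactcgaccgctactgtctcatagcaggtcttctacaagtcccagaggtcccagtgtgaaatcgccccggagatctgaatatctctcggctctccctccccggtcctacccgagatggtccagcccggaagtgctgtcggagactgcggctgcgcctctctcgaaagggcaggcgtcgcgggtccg

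None of the 3 monomer-binding genes passed. Tmsb4x, thymosin beta 4, which sequesters actin monomers, was at 3114, 1605, 1470 and 1423 CPM in ICAM1high and at 1758, 2333, 2464 and 5215 CPM in ICAM1low (log2 fold change -0.63, SE 0.36, adjusted p = 0.187). ICAM1high replicate 1 was higher than 3 of the 4 ICAM1low libraries, and the groups overlapped. Pfn1, profilin, which feeds monomers to growing ends, was at 1798, 938, 815 and 785 against 1313, 1701, 1594 and 3384 CPM (-0.88, SE 0.35, adjusted p = 0.0637), with ICAM1low replicate 4 and ICAM1high replicate 1 again highest in their fractions. Both values turned on these 2 libraries. Without ICAM1high replicate 1 alone Pfn1 was at -1.28 (adjusted p = 0.0102) and Tmsb4x at -1.01 (adjusted p = 0.0385). Without ICAM1low replicate 4 alone they were at -0.50 (adjusted p = 0.171) and -0.20 (adjusted p = 0.589), and without both at -0.89 (adjusted p = 0.00073) and -0.57 (adjusted p = 0.0109). Tmsb10, the related thymosin beta 10, was at 0.44 (SE 0.36, adjusted p = 0.343), and between 0.014 without ICAM1high replicate 1 and 0.79 without ICAM1low replicate 4. Per kilobase of gene, Tmsb4x, Actb and Actg1 had the highest mean levels of the 50 in both fractions. In ICAM1low they stood at 2146 ± 1127, 2084 ± 583 and 2041 ± 389.9 CPM per kilobase (SD, n = 4) and did not differ beyond their spread. In ICAM1high they stood at 1388 ± 591, 1025 ± 231 and 536 ± 98.8, followed by Pfn1 at 451 ± 199.9. Within each of the 4 ICAM1high libraries Tmsb4x was above Actb and Actb above Actg1, while Pfn1 was above Actg1 in replicate 1 and below it in the other 3.

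**Figure D2:**
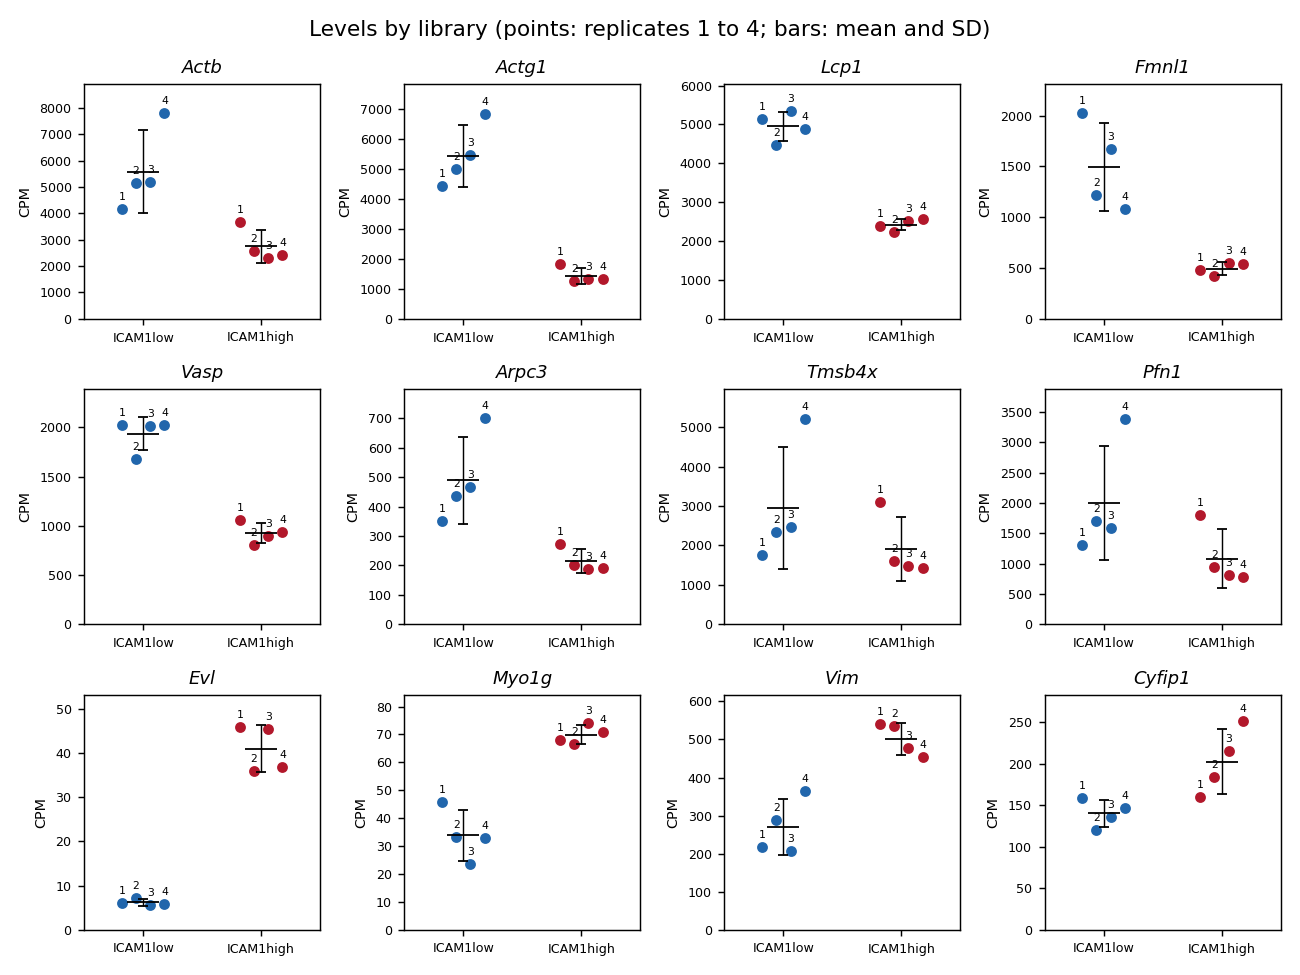
CPM of 12 genes in each library (points labelled by replicate number; bars, mean and SD of 4; every axis starts at 0). Actg1, Lcp1, Fmnl1, Vasp and Arpc3 are lower and Evl, Myo1g and Vim higher in ICAM1high without overlap. Tmsb4x and Pfn1 overlap, and are highest of their fractions in ICAM1high replicate 1 and ICAM1low replicate 4, as are Actb, Actg1 and Arpc3.

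Of the 8 Arp2/3 subunits, which together nucleate branched filaments, 5 were lower, 0 higher and 3 did not pass, with log2 fold changes from -1.19 to -0.17. Arpc3 was at 274, 201, 188 and 193 CPM in ICAM1high and at 351, 437, 466 and 700 CPM in ICAM1low (-1.19, SE 0.23, adjusted p = 0.00212). Arpc5, a subunit with a paralogue, Arpc5l, was at 421, 341, 316 and 310 against 571, 645, 707 and 844 CPM (-0.995, SE 0.17, adjusted p = 0.00122). For both, every ICAM1high library lay below every ICAM1low library. Actr3, the actin-related protein Arp3, was at -0.72 and its partner Actr2, Arp2, at -0.17, while Arpc1b and Arpc2 were at -0.59 and -0.58. The members that did not pass, Arpc4, Arpc1a and Actr2, were at -0.37, -0.25 and -0.17. Under library totals Arpc3 alone of the complex passed as lower (-0.49, adjusted p = 0.0464), Actr2 and Arpc1a passed as higher (0.51 and 0.44), and Arpc1b, Arpc2 and Arpc4 were at 0.09, 0.11 and 0.32. Arpc4 overlaps Ttll3 on the same strand, which held 18.1% as many counts.

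Of the activators of the complex, 2 of 3 genes of the WASP group were lower and 1 of 5 of the WAVE group was higher. Wasl (N-WASP), the widely expressed WASP, was at 41.9, 55.2, 53.9 and 59.6 CPM in ICAM1high and at 90.5, 102, 131 and 79.7 CPM in ICAM1low (-0.94, SE 0.19, adjusted p = 0.00279), with no overlap. Its blood-cell relative Was was at 98.3, 91.4, 87.8 and 85.6 against 74.2, 89.1, 71.8 and 72.5 CPM (0.24, SE 0.14, adjusted p = 0.182). Wipf1, which stabilises WASP, was lower at -0.52 on the TMM scale (adjusted p = 0.0105) and at 0.16 under library totals, when Was passed as higher (0.91) and Wasl was at -0.25 without passing. In the 5-subunit WAVE complex 1 gene was higher and 4 did not pass. Cyfip1, the subunit that binds Rac, was at 160, 184, 215 and 251 CPM against 159, 121, 136 and 147 CPM (0.53, SE 0.17, adjusted p = 0.031), with the lowest ICAM1high library just above the highest ICAM1low library. Nipa2 overlaps it on the other strand with 15.4% as many counts. Wasf2, the WAVE2 protein itself, was at 0.08, and Abi1, Nckap1l and Brk1 were at -0.34, -0.39 and -0.61 on the TMM scale and at 0.34, 0.29 and 0.09 under library totals. Of the genes that act on branches, Coro1a, the coronin of blood cells, was at 827, 618, 566 and 574 against 1168, 1377, 1270 and 1714 CPM (-1.10, SE 0.18, adjusted p = 0.00103), with no overlap. Hcls1, the cortactin relative of blood cells, was at 338, 328, 314 and 304 against 606, 544, 610 and 611 CPM (-0.88, SE 0.13, adjusted p = 0.000458), again apart, and at -0.20 without passing under library totals. Coro1b was at 0.11 (SE 0.21, adjusted p = 0.704) and at -0.12 without ICAM1high replicate 1.

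Of the 4 elongation factors 1 was higher and 3 were lower. Evl (ENSMUSG00000021262, chromosome 12, 108554720 to 108688516) was at 45.9, 36.0, 45.3 and 36.8 CPM in ICAM1high and at 6.09, 7.28, 5.58 and 5.93 CPM in ICAM1low, with ICAM1high higher by 2.72 on the log2 scale (SE 0.18, adjusted p = 4e-06), or 6.59-fold. It was the largest change among the 50 in either direction, and rested on 83 to 119 counts per ICAM1low library. The other Ena/VASP member, Vasp (chromosome 7, 19256929 to 19271817), was far more abundant and lower in ICAM1high, at 1054, 809, 896 and 938 against 2026, 1682, 2011 and 2025 CPM (-1.07, SE 0.15, adjusted p = 0.000338). Vasp transcripts outnumbered those of Evl, per kilobase, by 355.5 ± 65.2 to 1 in ICAM1low and by 25.5 ± 2.65 to 1 in ICAM1high (SD, n = 4). The formin Fmnl1 (chromosome 11, 103171107 to 103198901), typical of blood cells, was at 477, 417, 548 and 537 against 2023, 1216, 1675 and 1077 CPM (-1.60, SE 0.22, adjusted p = 0.000306). Diaph1 (mDia1), a formin opened by RhoA, was at 258, 325, 377 and 396 against 948, 708, 847 and 639 CPM (-1.21, SE 0.19, adjusted p = 0.000677). Neither formin overlapped between the fractions. Vasp and Fmnl1 also passed as lower under library totals, whereas Diaph1 was at -0.53 with an adjusted p of 0.0522.

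Severing and capping genes gave 4 lower, 0 higher and 3 that did not pass, and the 4 lower ones stood between -0.10 and 0.12 under library totals, where none passed. Capping protein, a heterodimer that blocks fast-growing ends, was lower in its beta subunit Capzb (-0.79, SE 0.21, adjusted p = 0.0115) and in both alpha subunits, Capza1 (-0.57) and Capza2 (-0.59). Capza1 was at 185, 184, 189 and 195 CPM in ICAM1high and 260, 276, 305 and 272 CPM in ICAM1low. Dstn, destrin, a relative of cofilin, was at 117, 113, 91.9 and 128 against 164, 201, 184 and 217 CPM (-0.77, SE 0.16, adjusted p = 0.00309). Neither gene overlapped between the fractions. Cfl1, cofilin, was at 1265, 864, 731 and 742 against 951, 1207, 1234 and 2021 CPM (-0.59, SE 0.26, adjusted p = 0.0922), overlapping through ICAM1high replicate 1. Gsn, gelsolin, was at -0.32 and Capg, a gelsolin relative that caps without severing, at 0.46, without passing; Capg passed as higher under library totals (1.15). Of the crosslinkers, Lcp1, the plastin of leukocytes, was at 2396, 2229, 2512 and 2564 against 5135, 4477, 5342 and 4875 CPM (-1.03, SE 0.14, adjusted p = 0.000275), and Flna, filamin A, was at -0.23 (SE 0.25, adjusted p = 0.477). Lcp1 did not overlap between the fractions and passed as lower on both scales; Flna overlapped and was at 0.45 under library totals.

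Among the 6 myosin genes 2 light chains were lower, 1 class I myosin was higher and 3 did not pass. Myl12b, a regulatory light chain of non-muscle myosin II, was at 4.44, 4.51, 4.83 and 7.40 CPM in ICAM1high and at 22.7, 17.0, 19.8 and 19.6 CPM in ICAM1low (-1.91, SE 0.22, adjusted p = 0.000122). Its value is uncertain: it is nearly identical to Myl12a, and AC154187.2, a protein-coding gene on the same strand that overlaps it, held 62.5% as many counts. Myl12a was at 140, 63.6, 54.5 and 58.6 against 87.4, 109, 105 and 283 CPM (-0.89, SE 0.42, adjusted p = 0.113). Myl6, the essential light chain, was lower at -1.01 (SE 0.33, adjusted p = 0.0317), with overlap, at 344, 207, 173 and 158 against 292, 353, 382 and 748 CPM. The heavy chain Myh9 was at -0.44 (SE 0.27, adjusted p = 0.206). Myo1g, a membrane-bound class I myosin of blood cells, was at 68.0, 66.7, 74.1 and 70.9 against 45.9, 33.2, 23.7 and 33.1 CPM (1.04, SE 0.19, adjusted p = 0.00186), without overlap. Its relative Myo1f was at -0.32 (SE 0.16, adjusted p = 0.142).

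Of the membrane linkers, Ezr, ezrin, was lower at 281, 301, 342 and 334 against 570, 500, 595 and 484 CPM (-0.77, SE 0.14, adjusted p = 0.00176), and at -0.09 without passing under library totals. Rdx, radixin, was higher at 39.7, 61.3, 55.3 and 57.0 against 36.5, 37.2, 36.8 and 21.6 CPM (0.69, SE 0.21, adjusted p = 0.0236), and Msn, moesin, by far the most abundant of the 3, was at -0.43 (SE 0.17, adjusted p = 0.0666). Vim, the intermediate filament protein vimentin, was at 540, 536, 477 and 455 against 219, 290, 206 and 366 CPM (0.89, SE 0.20, adjusted p = 0.00465), with no overlap. Of the GTPases that steer the machinery, Rhoa, which drives contraction, was at 464, 356, 332 and 350 against 439, 553, 575 and 672 CPM (-0.58, SE 0.18, adjusted p = 0.0227). Rac1, which drives protrusion, was lower at -0.61 (SE 0.22, adjusted p = 0.0465), and Cdc42, which sets polarity, was at -0.42 (adjusted p = 0.146). The libraries of both fractions overlapped for all 3 through ICAM1high replicate 1. Under library totals Rhoa was at 0.11, Rac1 at 0.09 and Cdc42 at 0.27, none passing.

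Because a share within related genes is free of the scaling, 16 sets were compared as the share that 1 gene takes of the set's counts per kilobase, with exact two-sided permutation tests. In 9 of the 16 sets the fractions did not overlap, each with an exact permutation p = 0.0286, the smallest that 4 against 4 allows. Adjusted over the 16 sets this became 0.0508, so 0 sets passed after adjustment. No sets of other genes were compared, so how often such shares stay apart elsewhere was not tested. Actg1 took 34.5 ± 1.69% of the 2 actins in ICAM1high and 49.8 ± 2.21% in ICAM1low (SD, n = 4). Wasl took 18.3 ± 2.99% of Was and Wasl against 33.5 ± 5.32%. Coro1b took 30.6 ± 1.53% of Coro1a and Coro1b against 16.1 ± 0.786%, with all ICAM1high libraries at 29.0 to 32.2% and all ICAM1low libraries at 15.1 to 17.0%. The share of the smaller partner was also apart in 5 further sets: Tmsb10 took 3.41 ± 0.259% of the thymosins against 1.72 ± 0.140%, Evl 3.81 ± 0.387% of the Vasp and Evl pair against 0.289 ± 0.0635%, Myo1g 9.96 ± 0.688% of Myo1f and Myo1g against 4.09 ± 0.681%, Arpc1a 15.8 ± 1.03% of Arpc1a and Arpc1b against 12.8 ± 1.16%, and Arpc5l 3.14 ± 0.54% of Arpc5 and Arpc5l against 1.47 ± 0.400%. Rac2, the Rac of blood cells and no member of the 50, took 73.5 ± 1.74% of Rac1 and Rac2 against 78.7 ± 1.04%. The other 7 sets overlapped. Capza2 of the capping alpha subunits (55.7 ± 2.57 against 56.2 ± 1.57%, p = 0.771, exact permutation test) and Dstn of Cfl1 and Dstn (13.8 ± 2.98 against 15.4 ± 2.64%, p = 0.457, exact permutation test) differed by less than the spread between replicates. Msn of the ezrin, radixin and moesin set (69.4 ± 0.851 against 65.5 ± 2.71%) and Gsn of Gsn and Capg (75.4 ± 6.49 against 83.8 ± 2.30%) each had p = 0.0571 in the exact permutation test, as had Nckap1l of Nckap1 and Nckap1l (98.1 ± 0.458 against 96.7 ± 0.926%). Fmnl1 of the 2 formins and Myl12b of the 2 regulatory light chains had p = 0.0857 and 0.114 in the same exact test.

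**Figure D3:**
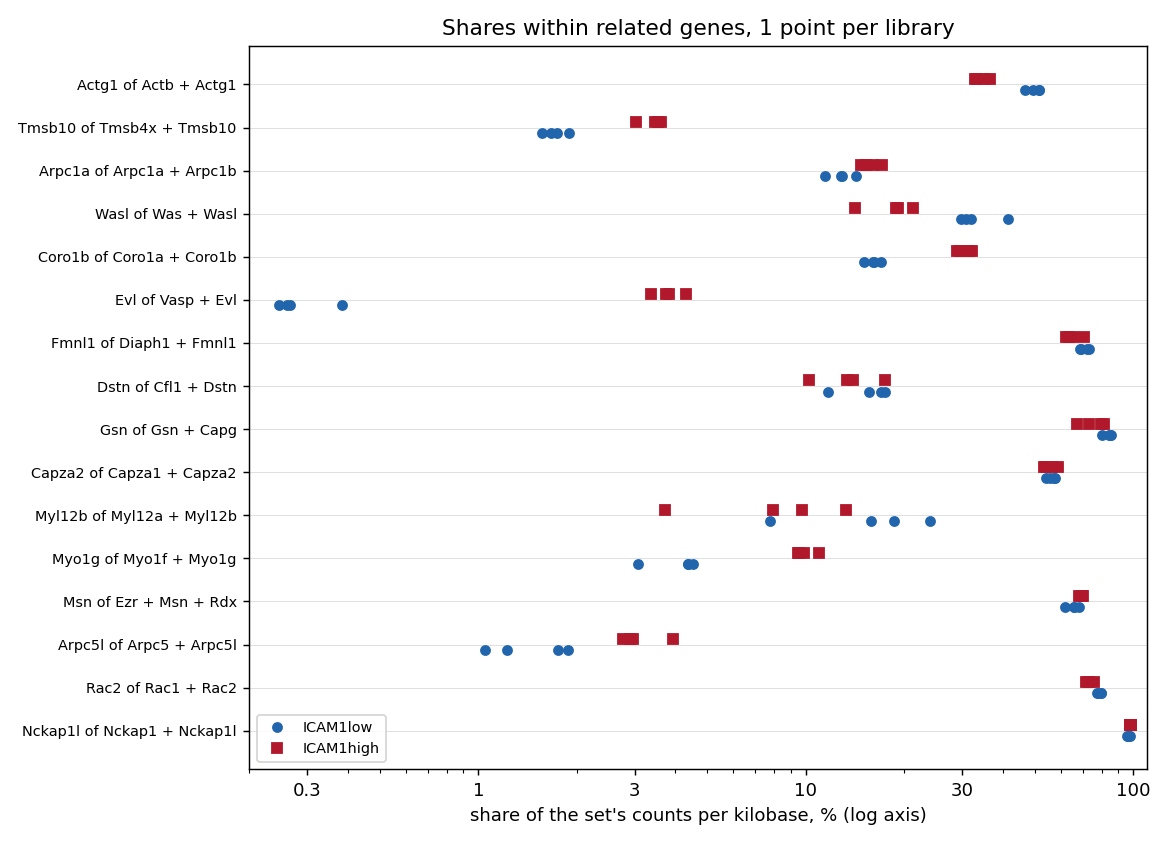
Share of counts per kilobase that the first-named gene takes of its set (log axis, %), 1 point per library (blue circles ICAM1low, red squares ICAM1high). The fractions are apart in 9 of 16 sets, most widely for Evl beside Vasp, and overlap for Capza2 and Dstn.

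Within the fractions, ICAM1high replicate 1 and ICAM1low replicate 4 stood apart by gene length. The members were split at 3294.5 bases, their median length. In ICAM1high replicate 1, 21 of the 25 shorter members were above all other libraries of the fraction, and 2 below all others; of the 25 longer members 13 were below all others and 8 above. In ICAM1low replicate 4, 20 of the shorter members were above all others and 1 below, and 11 of the longer ones below and 6 above. Deposited length did not sort every member: Rhoa, of 7494 bases, stood at 1.34 and 1.29 times the mean of the other 3 libraries. The deposited length of a gene may differ from that of its transcripts in these cells, which was not measured. Tmsb4x, of 1371 bases, stood at 2.08 times the mean of the other 3 libraries in ICAM1high replicate 1 and at 2.39 times in ICAM1low replicate 4, and Myh9, of 12928 bases, at 0.559 and 0.584 times. Lcp1, of 9504 bases, stood at 0.984 and 0.978 times. Over all genes, those below the median length of tested genes took 58.5% of counts in ICAM1high replicate 1 against 45.0 to 47.6% in its group. They took 63.7% in ICAM1low replicate 4 against 48.4 to 55.3%. The 48.4% was ICAM1low replicate 1, beside 55.3 and 54.6% in replicates 2 and 3. In ICAM1low replicate 1 the long genes Myh9, Nckap1l, Flna and Fmnl1 were highest of the fraction, at 1893, 1062, 724 and 2023 CPM. Lcp1 and Rhoa were not. This library was not compared by length over all members. Without it alone Nckap1l was at -0.09 and Flna at 0.02, neither passing. Without ICAM1high replicate 1 and ICAM1low replicate 4, Pfn1, Tmsb4x, Cfl1, Brk1, Myl12a, Arpc4, Abi1, Msn and Cdc42 also passed as lower, at -0.41 to -0.89. No called member was lost. Calls rose over all genes too, from 2748 to 3441 lower and from 3172 to 3586 higher.

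**Figure D4:**
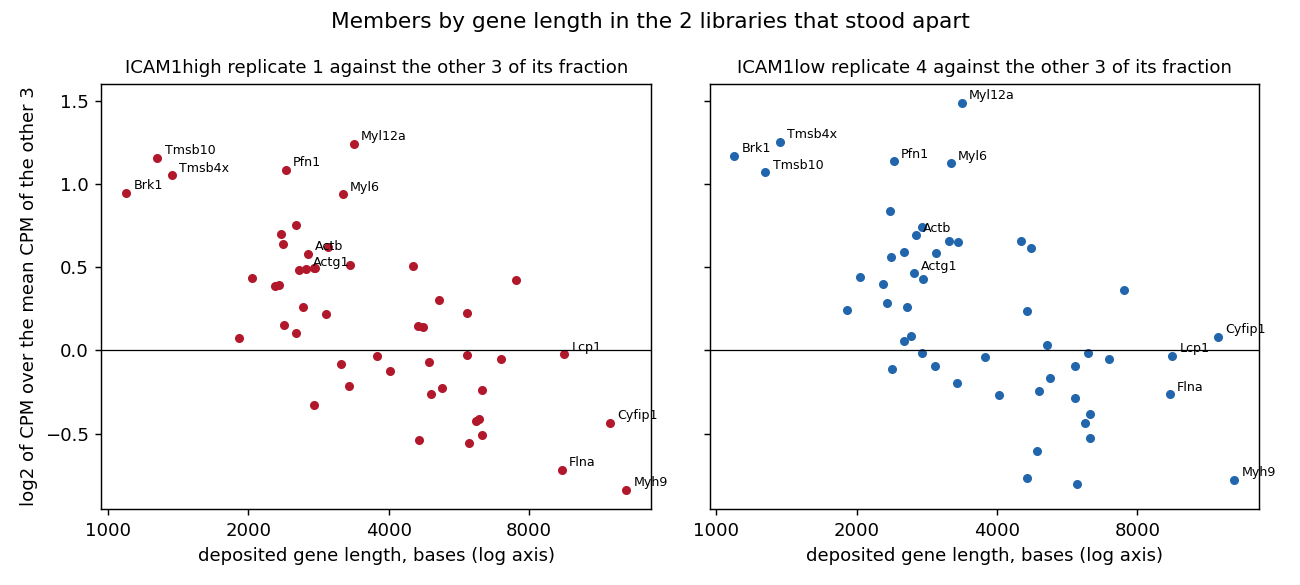
Log2 of a member's CPM in ICAM1high replicate 1 (left) and ICAM1low replicate 4 (right) over the mean of the other 3 libraries of its fraction, against gene length (log axis). Short genes such as Tmsb4x and Brk1 lie above 0 and long ones such as Myh9 below it in both libraries.

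Of 152 further pathway genes, 140 were tested. With TMM 29 were higher, 44 lower and 67 did not pass, where 22.6% of all tested genes were higher and 19.6% lower. Under library totals 55 were higher and 9 lower, where 6818 and 839 of all 14051 genes were. Among other nucleation and elongation genes 5 of 23 were higher and 7 lower. Fmn1, a formin, was at 13.9, 27.7, 28.1 and 24.1 against 3.01, 3.00, 3.91 and 0.125 CPM (3.22, SE 0.61, adjusted p = 0.00203); the lowest of these values rests on 2 counts. Spire1, a nucleator that works with formins, rose by 1.62 and Cttn, cortactin, changed by -1.06. The other 3 higher genes, named after their values were seen, were Diaph3 (1.61), Inf2 (0.78) and Washc1 (0.44). Lower genes of this list other than Cttn are not named, and its tested genes ran from -1.47 to 3.22. Among filament turnover genes 6 of 23 were higher and 5 lower. Coro7, a coronin of the Golgi, and Gmfb, a debranching factor, rose by 1.15 and 1.01, and Cap1, which recharges actin monomers, changed by -0.94 (SE 0.14, adjusted p = 0.000448). The other 4 lower genes, named after their values were seen, were Gmfg (-1.60), the blood-cell relative of Gmfb, Svil (-1.22), Ssh2 (-0.75) and Wdr1 (-0.50). Higher genes of this list other than Coro7 and Gmfb are not named, and its tested genes ran from -1.60 to 2.51. Among crosslinker, tropomyosin and myosin genes 3 of 32 were higher, the myosins Myo1e at 2.43, Myo7a at 3.91 and Myo5a at 1.81, the last named after its value was seen, and 13 were lower. Tpm4, a tropomyosin, was at 360, 287, 322 and 269 against 856, 865, 1111 and 950 CPM (-1.61, SE 0.16, adjusted p = 4.61e-05). Lower genes of this list other than Tpm4 are not named, and its tested genes ran from -1.72 to 3.91.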

How the data were processed

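RNA of 8 libraries (100 ng total RNA each, ABClonal mRNA-seq kit, per the labels' protocols) was aligned with HISAT2 to mm10, per the submitters' processing notes; the counting tool and its strand setting are not stated. The authors deposited 1 table of raw counts per gene, with symbols, coordinates and gene lengths. Of 54532 genes listed, edgeR 4.0.16 (R 4.3.3, limma 3.58.1) tested the 14051 that passed filterByExpr, with TMM scaling, the quasi-likelihood test and Benjamini-Hochberg adjustment over all of them at 0.05. Log2 fold changes are ICAM1high over ICAM1low. DESeq2 1.42.0 was an alternative, beside other scalings, filters, a replicate block and libraries left out. Fits were tested on simulated data in which few genes changed, evenly up and down. That setting differs from these libraries and could not test the choice of scaling. CPM was divided by the deposited gene length in kilobases to compare genes. That length may differ from the length of the transcripts sequenced, so levels and ranks between genes are approximate. Shares within related genes were tested by exact permutation.

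Members and lists were chosen with earlier results of these data known. Values in every library were given for members with the extreme fold changes, the smallest p in each role, the highest level per length and the sets of related genes; of other pathway genes, up to 3 a list by p whose mean log2 CPM reached 3 were named. Depth was 10328575 to 22751975 counts per library. Of the 4 lists of other pathway genes, 1 is not reported here on its own.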

Additional observations from a re-analysis of the deposited data

Results flagged for a closer look

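In 20 of 132 groups of 4 libraries examined (100 for the CPM of the 50 genes, 32 for the shares), 1 library lay far from the other 3; about 1 in 20 groups would be marked by chance, and the groups share libraries. Of the 20, 10 were in ICAM1high replicate 1. In that library Actg1 was at 1815 CPM, Tmsb4x at 3114, Pfn1 at 1798, Arpc2 at 683, Capzb at 447, Coro1b at 335, Arpc3 at 274, Brk1 at 224 and Myl12a at 140 CPM, all above the other 3 libraries, and Wasf2 was at 132 CPM, below them. In ICAM1low replicate 4, Myl12a was high at 283 CPM and Rdx low at 21.6 CPM. In ICAM1low replicate 1, Myo1f at 708 CPM and Flna at 724 CPM were high.

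ICAM1low replicate 2 was low for Vasp, at 1682 CPM, and for Hcls1, at 544 CPM, and high for Was, at 89.1 CPM. Its share of Evl within Vasp and Evl, 0.384%, was above the 0.246 to 0.267% of the other 3. ICAM1low replicate 3 had the low share of Myo1g within Myo1f and Myo1g, 3.08% against 4.38 to 4.54%. Myl12b was at 7.40 CPM in ICAM1high replicate 4 against 4.44 to 4.83 CPM in the others.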

How the results depend on the processing

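Actg1, Fmnl1, Lcp1, Myl12b and Vasp were called lower and Evl higher in all 17 alternatives. Over all genes, scaling by library totals gave 6818 higher and 839 lower. It gave 12 higher and 7 lower members and 55 higher and 9 lower other pathway genes. It turned the sign of Tmsb4x (0.076), Actr2 (0.51), Arpc1a (0.44), Arpc1b (0.086), Arpc2 (0.11), Arpc4 (0.32), Wipf1 (0.16), Nckap1l (0.29), Abi1 (0.34), Brk1 (0.091), Cfl1 (0.11), Gsn (0.38), Capza1 (0.12), Capza2 (0.085), Flna (0.45), Myh9 (0.24), Myo1f (0.36), Msn (0.25), Cdc42 (0.27), Rac1 (0.089) and Rhoa (0.11); the alternative by construction moves all values up. The replicate block left 3 higher and 20 lower members, losing Cyfip1, Rdx, Arpc2, Myl6, Rac1 and Rhoa. Over all genes it left 2263 higher and 1975 lower. Deviations of same-numbered libraries correlated at -0.57, 0.21, 0.18 and -0.30 for replicates 1 to 4. ICAM1high replicate 1 matched ICAM1low replicate 4 best, and both stood apart by gene length. These correlations therefore cannot decide whether samples were paired.

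Leaving out 1 library gave 3 to 5 higher and 20 to 31 lower members. All genes gave 2345 to 3403 higher and 2157 to 2927 lower in these settings. Leaving out 1 library moved Tmsb10 between 0.014 and 0.79, Myl12a between -1.35 and -0.35, Coro1b between -0.12 and 0.27 and Flna between -0.36 and 0.024. Over all genes, replicates 1 and 2 alone gave 1708 higher and 1416 lower, and replicates 3 and 4 alone 1658 and 1604. Replicates 1 and 2 alone, with fewer samples, gave 3 higher and 7 lower members and 15 higher and 20 lower other pathway genes, and turned Tmsb4x (0.20), Arpc1a (0.040), Wasf2 (-0.048), Brk1 (0.10), Myl12a (0.045) and Cdc42 (0.0445). Replicates 3 and 4 alone gave 2 higher members and 22 lower other pathway genes, and turned Tmsb10 (-0.41), Nckap1l (0.092), Coro1b (-0.27), Flna (0.18) and Myh9 (0.036). The cause was not tested. Among the 50 members, counts were lowest for Evl and Myl12b, at 83 and 97 in their lowest libraries.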
